A study of Mus musculus with 4 samples.

Results

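The genes examined here encode the Fc receptors of mouse macrophages and the kinase that signals below them, namely Fcgr1, Fcgr3, Fcgr4, Fcgr2b, Fcer1g, Fcer2a and Syk. Chromatin accessibility at these 7 genes was measured by ATAC-seq, in which the Tn5 transposase cuts open DNA. Cells were bone marrow-derived macrophages (BMDMs) from wild-type mice on a C57BL/6 background, aged 8 to 12 weeks and grown for 6 days with L929 supernatant, which supplies M-CSF. Untreated cells (control) gave 2 libraries and cells that received 20 ng/ml of IL-4 for 1 h gave another 2, and both groups carried replicate numbers 1 and 2. A region was a stretch in which peaks of the 4 libraries overlapped by at least 1 bp. It belonged to a gene when its highest peak was annotated to that gene in the deposited lists, which name the gene of the nearest transcription start site (TSS). By this rule 41 of 60710 regions belonged to 6 of the 7 genes, with 5 regions at Fcgr1, 5 at Fcgr3, 10 at Fcgr4, 9 at Fcgr2b, 3 at Fcer1g and 9 at Syk. Fcer2a had 0.

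Fc gamma receptors bind the constant part of IgG and let macrophages take up and respond to immune complexes. The activating receptors Fcgr1, Fcgr3 and Fcgr4 pair with the common gamma chain, encoded by Fcer1g, whose immunoreceptor tyrosine-based activation motif recruits the kinase Syk once it is phosphorylated. Fcgr2b is the inhibitory receptor for IgG and carries an inhibitory motif in its own tail, so the balance between it and the activating receptors sets the threshold of the response. Fcer2a encodes CD23, the low-affinity IgE receptor, best known from B cells. IL-4 activates the transcription factor STAT6, which binds a pair of TTC and GAA blocks spaced by 4 bases. The comparison asks where accessibility at these genes differed after short IL-4 stimulation.

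Peak height below is the deposited peak score, taken to be the −log10 q-value assigned to the peak. It states how strongly a peak stands out in its own library, rises with depth, and does not count reads. The control libraries held 45250 and 41885 peaks and the IL-4 libraries 41978 and 39462, and the median height ranged from 6.41 in IL-4 replicate 2 to 8.04 in control replicate 1. Depth is unknown, as the files hold no counts. A missing peak means that the height fell under the peak caller's threshold, and not that the chromatin was closed. In bulk cells, fewer cells with an open site and less open DNA in each cell cannot be told apart. Among 9 macrophage markers, 4 to 5 had a peak annotated as promoter-TSS in each library, and Adgre1, Csf1r, Itgam and Spi1 had such a peak in no library. Promoter peaks were found at 0 of 5 B cell, 0 of 6 T cell, 0 of 4 erythroid and 0 of 3 fibroblast markers. A promoter peak was present at 1 of 7 neutrophil markers in every library, and at 1 of 5 mast cell and basophil markers in replicate 1 of both groups. Regions of any annotation were less selective. They were found at 7 of 9 macrophage, 2 of 5 B cell, 3 of 6 T cell and 4 of 7 neutrophil markers. They were also found at 4 of 5 mast cell and basophil, 1 of 4 erythroid and 1 of 3 fibroblast markers.

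Peaks specific to a group were found at the neighbouring receptor genes Fcgr2b and Fcgr4. Peaks in both IL-4 libraries and in no control library (IL-4-only) were found at 2 of the 41 regions, and both belonged to Fcgr2b. Such regions were 2.53% of all 60710 regions and 4.88% of the 41. Peaks in both control libraries and in no IL-4 library (control-only) were found at 3 of the 41 regions, and these 3 belonged to Fcgr4. Control-only regions made up 4.33% of all regions and 7.32% of the 41. A further 17 regions (41.5%, compared to 41.9% of all regions) had a peak in all 4 libraries, 11 in 3 libraries, 3 in 1 library of each group and 5 in a single library.

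**Figure D1:**
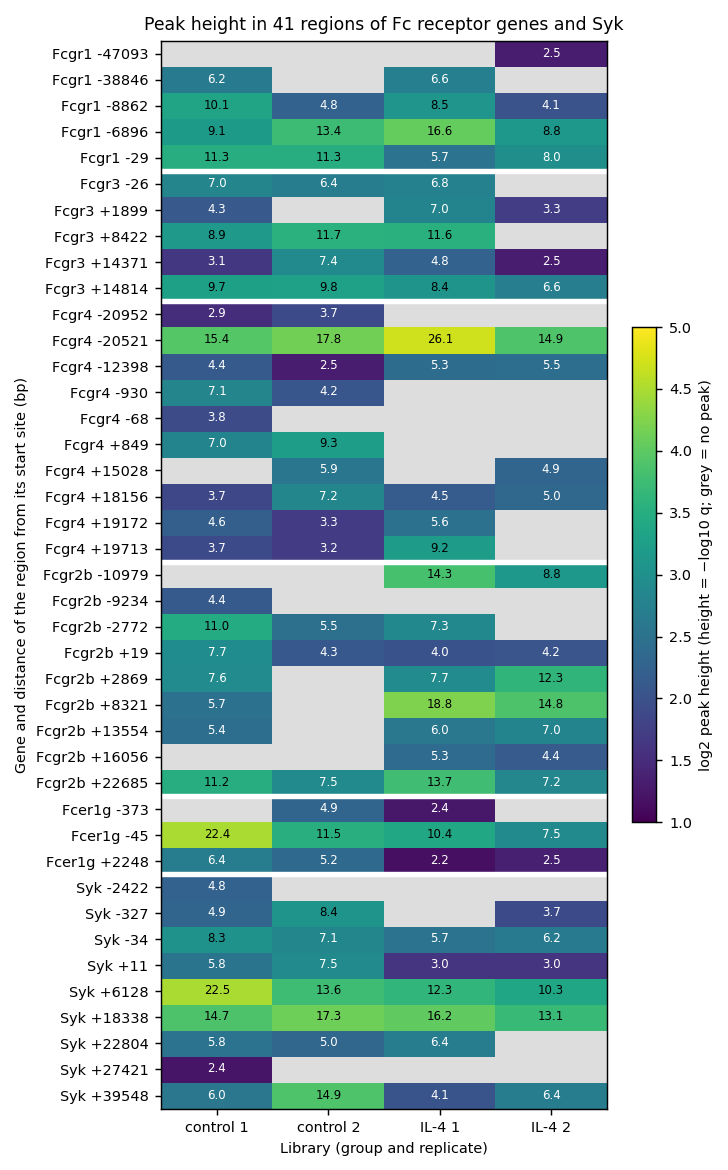
Peak height (−log10 q) in each of the 41 regions, with genes and distance from the start site in rows and the 4 libraries in columns. Colour is the log2 of the height, the printed number is the height, and grey marks no peak. The Fcgr4 rows at −930 and +849 bp are filled in control libraries only, and the Fcgr2b row at −10979 bp in IL-4 libraries only.

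Heights were also divided by each library's median over the 25442 regions shared by all 4 libraries (scaled heights). A missing peak was set to 0, which is below any peak, although its true height is unknown. On this scale both IL-4 libraries lay above both control libraries at 8 of the 41 regions (19.5%), compared to 13.4% of all regions. The 8 regions were 5 of Fcgr2b, 2 of Fcgr4 and 1 of Fcgr3. Both control libraries lay above both IL-4 libraries at 9 of the 41 regions (22%), compared to 14.8% of all regions. These 9 were 3 of Fcgr4, 2 of Fcer1g, 2 of Syk, 1 of Fcgr1 and 1 of Fcgr3. With 2 libraries per group an exact permutation test of any single region cannot give a p below 0.3333.

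Regions present in every library were compared by limma on quantile-normalised log2 heights. No region of these genes was called, with 0 of 17 at an adjusted p under 0.05 and 0 of 17 at an unadjusted p under 0.05. Over all 25442 regions limma called 6 (0.0236%), and 8.28% had an unadjusted p under 0.05. The 17 log2 changes ranged from −1.04 to 0.94 with standard errors from 0.313 to 0.565, and 10 were negative and 7 positive. Of all regions tested, 50.1% had a negative change. The median of the 17 was −0.12, compared to −0.0006 over all regions tested. The lowest adjusted p was 0.63. Regions with a missing peak could not enter this fit, so 24 of the 41 regions, among them each of the 5 regions specific to a group, carry no p-value.

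**Figure D2:**
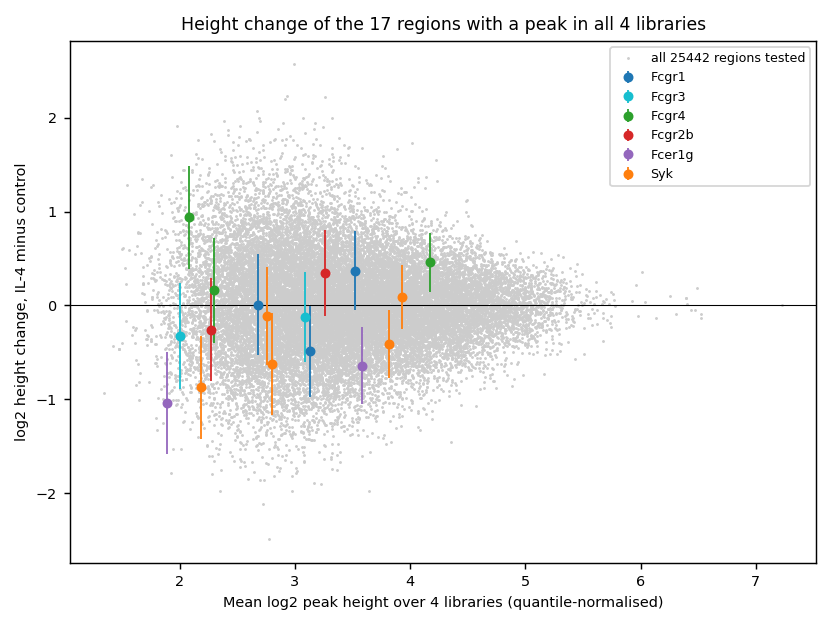
log2 height change (IL-4 minus control) against the mean log2 height for the 17 regions of these genes, coloured by gene with their standard errors, over all 25442 regions tested in grey. The coloured points lie between −1.04 and 0.94, inside the grey cloud.

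Among the activating receptors, Fcgr4 encodes a receptor for IgG2 subclasses and spans chr1:171018926-171029761 on the plus strand of mm10. Its peaks next to the start site were seen in control cells alone. The region at +849 bp, in intron 2 (chr1:171019681-171019869), had heights of 6.99 and 9.33 in control replicates 1 and 2 and no peak in either IL-4 library. The weaker of these values exceeds the median of 4 for the weaker height of control-only regions, and 147 of the 2630 control-only regions (5.59%) reached it. At −930 bp, upstream of the start site and annotated as promoter-TSS (chr1:171017917-171018081), control heights were 7.06 and 4.19 with no IL-4 peak. A weak region at −68 bp, just before the start site, had a height of 3.75 in control replicate 1 and no peak in the other 3 libraries. Neither IL-4 library had a peak at the start site of Fcgr4 or in these flanks. The third control-only region, at −20952 bp, was the weakest, with heights of 2.88 and 3.74, and 82.6% of control-only regions reached its weaker height. It lay beside a stronger region and was joined to it when peaks within 500 bp were merged, which left 2 control-only regions.

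The control-only regions flanking the start site are given here from the plus strand of GRCm38.p6 (RefSeq), together with the stretch upstream of the start site from the RefSeq promoter table, since the peaks of these sites separated the groups. Capitals mark the AP-1 letters TGANTCA in the region at +849 bp, and the letters GAAANNGAAA (the interferon-stimulated response element, bound by IRF proteins) and GAGGAAGT (bound by PU.1) in the promoter. No capitals stand in the region at −930 bp, which held none of the 8 motifs searched. The promoter also held the letters TGTGGT (bound by RUNX proteins) on the minus strand, left in lower case.
Fcgr4 +849 (chr1:171019681-171019869): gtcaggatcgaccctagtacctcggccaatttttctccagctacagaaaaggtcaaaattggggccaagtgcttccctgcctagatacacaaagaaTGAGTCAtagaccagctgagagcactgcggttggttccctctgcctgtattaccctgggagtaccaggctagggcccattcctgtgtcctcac
Fcgr4 −930 (chr1:171017917-171018081): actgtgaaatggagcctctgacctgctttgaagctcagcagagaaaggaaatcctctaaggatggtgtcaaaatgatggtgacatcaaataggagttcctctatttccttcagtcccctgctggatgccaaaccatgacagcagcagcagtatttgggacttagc
Fcgr4 promoter (chr1:171018676-171018915): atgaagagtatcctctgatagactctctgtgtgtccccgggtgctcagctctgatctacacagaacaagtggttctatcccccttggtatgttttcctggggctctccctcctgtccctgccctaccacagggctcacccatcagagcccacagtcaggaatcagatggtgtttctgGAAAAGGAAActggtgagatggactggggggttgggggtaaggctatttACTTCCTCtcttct

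AP-1 letters were found in 23% of regions of a length within 50 bp of the region at +849 bp, so that match is common. In the RefSeq promoters GAAANNGAAA was held by 3.43% and GAGGAAGT by 3.2% of 32817 windows. Fcgr4 was the one gene of the 7 whose RefSeq promoter window held either. GAGGAAGT also occurred in promoter-TSS regions of Fcer1g (−373 bp) and Syk (−327 bp), and in a region of Fcgr2b (+2869 bp). The interferon element also occurred in the Fcgr4 region at −12398 bp. None of the 3 control-only regions held the STAT6 letters TTCNNNNGAA on either strand, letters that 2.24% of control-only regions and 7.22% of all regions held.

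The highest region of the gene, at −20521 bp between Fcgr2b and Fcgr4 (chr1:170998133-170998626), had heights of 15.43 and 17.80 in control and 26.10 and 14.93 in IL-4 cells, and the raw heights overlapped, while after normalisation both IL-4 values were higher. Its log2 change was 0.46 ± 0.313 (SE, n = 2 per group, limma adjusted p = 0.748). It was 0.27 without control replicate 1 and 0.21 without IL-4 replicate 1. At −12398 bp the heights were 4.38 and 2.46 in control and 5.34 and 5.46 in IL-4 cells, both IL-4 values being above both control values. This was the largest positive change among the 17 regions, at 0.94 ± 0.55 (SE, limma adjusted p = 0.678), and it was not called. Downstream of the gene, 4 regions between +15028 and +19713 bp lay over tRNA genes in the RefSeq annotation. Their heights ranged from 3.24 to 9.20, and in 17% to 41% of their 32-base words the sequence occurred elsewhere in the genome, so reads there may not be assigned to 1 place. The region at +18156 bp, the only one of these present in all 4 libraries, had a log2 change of 0.16 ± 0.557 (SE, limma adjusted p = 0.967).

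Fcgr1 encodes the high-affinity receptor for IgG and spans chr3:96282909-96293969 on the minus strand. The promoter region at −29 bp (chr3:96293828-96294168) had heights of 11.31 and 11.29 in control and 5.74 and 7.95 in IL-4 cells. Both control heights were above both IL-4 heights before normalisation, and the groups overlapped after it. The log2 change was −0.49 ± 0.48 (SE, limma adjusted p = 0.853), and was −0.08 without IL-4 replicate 1 and −0.88 without IL-4 replicate 2. Upstream, the region at −6896 bp (chr3:96300684-96301195) had 9.10 and 13.45 in control and 16.58 and 8.78 in IL-4 cells, so that the highest and the lowest value were both in IL-4 libraries. At −8862 bp the heights were 10.06 and 4.78 in control and 8.49 and 4.07 in IL-4 cells, where replicate 1 exceeded replicate 2 in both groups (log2 change 0.01 ± 0.537 SE, limma adjusted p = 0.999). The sites at −38846 and −47093 bp had peaks in 2 libraries and in 1 library, with 13.5% and 78.3% of their words found elsewhere. The Fcgr1 promoter region held TTCNNNGAA, in which 3 bases part the blocks, as TTCTGGGAA at chr3:96294070-96294078, as did 10.1% of regions of like length.

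Fcgr3 encodes the low-affinity activating receptor for IgG and spans chr1:171051169-171065915 on the minus strand. The deposited distances count from a start site inside this span. The promoter region of that start, at −26 bp (chr1:171059319-171059527), had heights of 7.03 and 6.44 in control cells. It had 6.79 in IL-4 replicate 1 and no peak in IL-4 replicate 2. A region just past the 3′ end of the gene, at +8422 bp, had 8.89 and 11.72 in control cells, 11.60 in IL-4 replicate 1 and again no peak in IL-4 replicate 2. These gaps were in IL-4 replicate 2, the library with the fewest peaks, and a peak was present in the other IL-4 library. Why the peaks were missing was not tested. At +14814 bp, past the end of the gene, heights were 9.71 and 9.75 in control and 8.42 and 6.58 in IL-4 cells (log2 change −0.12 ± 0.48 SE, limma adjusted p = 0.973). The region at +14371 bp lay over a tRNA gene and varied more between replicates than between groups, from 3.14 to 7.42 in control and from 2.46 to 4.76 in IL-4 cells. Intron 3 of Fcgr3 had a peak at +1899 bp in control replicate 1 (4.32) and in both IL-4 libraries (7.02 and 3.32).

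The inhibitory receptor Fcgr2b spans chr1:170960558-170976071 on the minus strand. Its largest height differences were at 1 upstream region and 1 region in intron 3, both higher in IL-4 cells. Its other upstream regions, at −2772 and −9234 bp, were not higher in IL-4 cells. The region at −10979 bp, upstream of the gene (chr1:170986855-170987246), had heights of 14.31 and 8.80 in the IL-4 libraries and no peak in either control library. Its weaker height of 8.80 was reached by 53 of the 1534 IL-4-only regions (3.46%), whose median was 3.73. In intron 3, at +8321 bp (chr1:170967569-170967979), heights were 18.77 and 14.75 in IL-4 cells, 5.65 in control replicate 1, and no peak was called in control replicate 2. With missing peaks set to 0, the gap between the groups on the scaled heights was 1.21 at +8321 bp and 0.993 at −10979 bp. The gap at −10979 bp is the scaled height of IL-4 replicate 2 itself, so it is an upper bound. On that scale the gaps ranked 40 and 97 among the 8111 regions in which both IL-4 libraries were higher. The second IL-4-only region, at +16056 bp (chr1:170959800-170960135), was weaker with heights of 5.28 and 4.42. It starts past the end of the RefSeq gene and lies in the last exon of a longer GENCODE transcript of Fcgr2b.

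**Figure D3:**
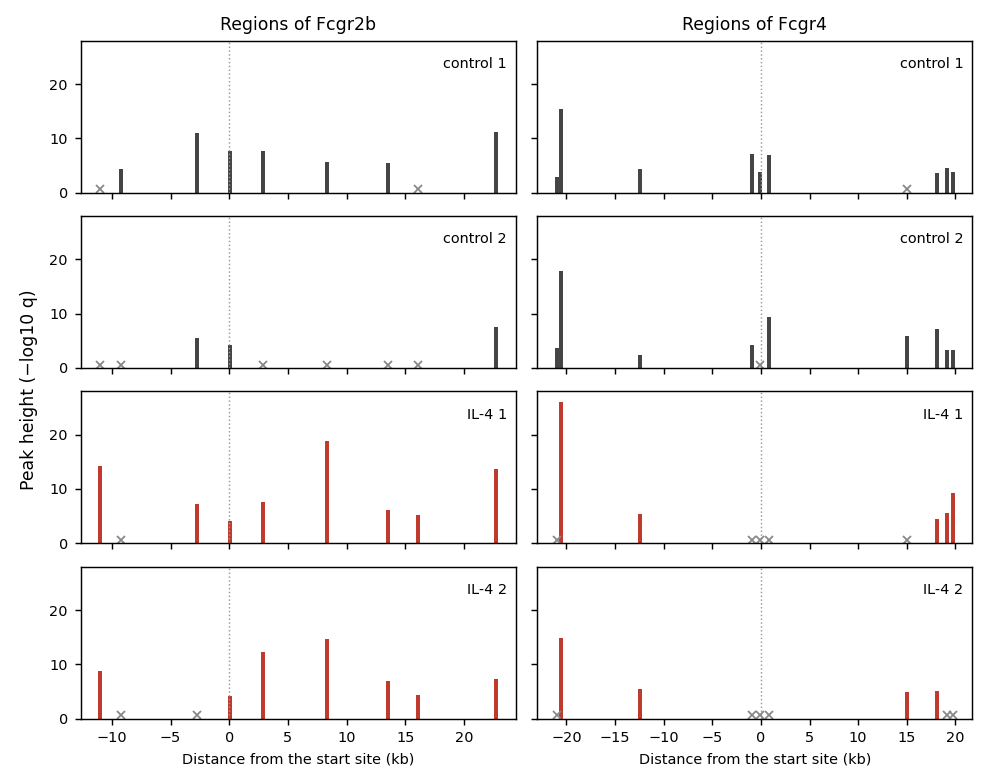
Peak height (−log10 q) against distance from the start site in kb for the regions of Fcgr2b (left) and Fcgr4 (right), 1 row per library, control in grey and IL-4 in red. Crosses mark regions with no peak in that library, and the dotted line is the start site. At Fcgr2b the bars at −10979 and +8321 bp reach 8.80 to 18.77 in IL-4 cells, and at Fcgr4 the bars beside the start site are seen in control libraries only.

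Both leading Fcgr2b regions are printed here from the plus strand of GRCm38.p6 (RefSeq), since they carry the largest gaps on the scaled heights among these genes. The stretches are limited to 300 bases that include the STAT motifs. Capitals mark the 4-base spacing TTCNNNNGAA in both, and in the intron also the 3-base spacing TTCNNNGAA.
Fcgr2b −10979 (chr1:170986947-170987246): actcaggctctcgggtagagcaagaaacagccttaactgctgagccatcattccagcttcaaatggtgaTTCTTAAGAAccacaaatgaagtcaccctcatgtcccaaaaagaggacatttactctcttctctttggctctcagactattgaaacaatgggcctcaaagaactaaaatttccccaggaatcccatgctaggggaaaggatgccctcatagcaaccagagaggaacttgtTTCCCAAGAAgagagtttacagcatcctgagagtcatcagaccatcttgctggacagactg
Fcgr2b +8321 (chr1:170967619-170967918): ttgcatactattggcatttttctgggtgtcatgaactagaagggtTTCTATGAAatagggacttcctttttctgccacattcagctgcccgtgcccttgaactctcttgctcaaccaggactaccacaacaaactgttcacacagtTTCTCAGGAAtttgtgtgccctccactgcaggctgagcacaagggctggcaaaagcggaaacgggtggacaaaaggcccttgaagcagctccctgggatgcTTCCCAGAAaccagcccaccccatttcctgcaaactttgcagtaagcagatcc

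The region at −10979 bp held the STAT6 letters at 2 sites, TTCTTAAGAA at chr1:170987016-170987025 and TTCCCAAGAA at chr1:170987186-170987195. The intron region held them at 1 site, TTCTCAGGAA at chr1:170967765-170967774, with the 3-base spacing at 2 further sites. The weaker region at +16056 bp held the 4-base letters at 2 sites, TTCCTGAGAA at chr1:170959953-170959962 and TTCACTGGAA at chr1:170960041-170960050. Both IL-4-only regions of these genes thus held the STAT6 letters, which 30.9% of all IL-4-only regions held. Among regions of a length within 50 bp the share was 10.4% for the region at −10979 bp, 10.5% for the intron and 10.7% for the region at +16056 bp. Over the 41 regions the letters were present in 6 (14.6%). The other 3 were Fcgr4 at −20521 and +19172 bp and Syk at +22804 bp, none of which was specific to a group. A match of letters does not show binding.

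The remaining Fcgr2b regions had smaller differences. In intron 1, at +2869 bp, heights were 7.63 in control replicate 1 and 7.66 and 12.27 in IL-4 cells, with no peak in control replicate 2. In intron 5, at +13554 bp, they were 5.44 in control replicate 1 and 6.05 and 6.95 in IL-4 cells, again with no peak in control replicate 2. The promoter region at +19 bp had 7.69 and 4.29 in control and 4.03 and 4.17 in IL-4 cells, with a log2 change of −0.26 ± 0.548 (SE, limma adjusted p = 0.941). At +22685 bp, past the end of the gene, heights were 11.20 and 7.46 in control and 13.67 and 7.20 in IL-4 cells, and the groups overlapped (log2 change 0.35 ± 0.459 SE, limma adjusted p = 0.896). Upstream of the start site, the region at −2772 bp had 10.99 and 5.54 in control cells, 7.29 in IL-4 replicate 1 and no peak in IL-4 replicate 2, and 25.3% of its words occurred elsewhere. At −9234 bp a peak of 4.38 was called in control replicate 1 alone. On the raw scale both control heights at +19 bp lay above both IL-4 heights, and on the scaled heights this held for 0 of the 9 Fcgr2b regions.

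Control replicate 2 had a peak in only 3 of the 9 Fcgr2b regions, compared to 7 in control replicate 1, 8 in IL-4 replicate 1 and 7 in IL-4 replicate 2. Without control replicate 1, 5 Fcgr2b regions had peaks in both IL-4 libraries and no control peak, the region at +8321 bp among them. Without control replicate 2 the count was 2, the regions at +16056 and −10979 bp. Without IL-4 replicate 1 it was 4, because both regions then fell into 2 separate peaks. Over all regions the IL-4-only count rose from 1534 to 3291, 2634 and 5820 in these settings, in the same order. Leaving out a library loosens the rule. With peaks above the pooled median height of 7.37 alone, the 2 IL-4-only regions of these genes were those at −10979 and +8321 bp of Fcgr2b, and the number of control-only regions was 0. The control-only count at Fcgr4 was 5 without IL-4 replicate 1, a setting in which all control-only regions rose from 2630 to 6225.

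The receptor genes share sequence, so the regions were searched for repeated words. All 32-base words of 29 of the 41 regions occurred once in the genome, and 8 regions had over 10% of their words elsewhere, 6 of which lay over tRNA genes. In the region at −10979 bp 0.831% of the words were repeated, and in the other 4 regions specific to a group 0%. The intron 3 regions of Fcgr2b (+8321 bp) and Fcgr3 (+1899 bp) matched over 80 aligned bases with 78.8% identity, at chr1:170967815-170967898 and chr1:171057539-171057621. Both stretches held TTCCCAGAA, and the 4-base STAT6 site of the Fcgr2b region lay outside them.

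**Figure D4:**
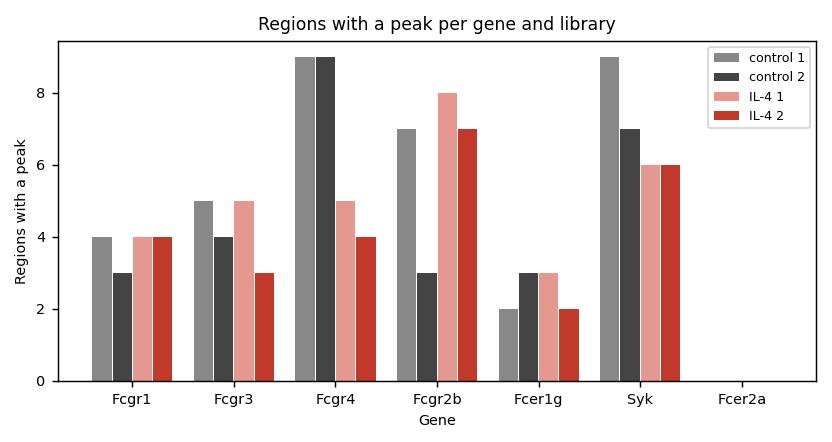
Number of regions with a peak per gene (horizontal axis) in each library, control in greys and IL-4 in reds. Fcgr4 had 9 and 9 regions with a peak in control and 5 and 4 in IL-4 libraries, Fcgr2b 7 and 3 against 8 and 7, and Fcer2a had 0.

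Fcer1g, the gamma chain on which the activating receptors depend, spans chr1:171229572-171234349 on the minus strand. Heights were lower in both IL-4 libraries at its promoter and in intron 1. At the promoter (−45 bp, chr1:171234216-171234556) they were 22.40 and 11.51 in control and 10.39 and 7.53 in IL-4 cells, so the groups did not overlap. The SD of the control pair was 0.57 on the log2 scale, and the log2 change was −0.64 ± 0.407 (SE, limma adjusted p = 0.715). It was −0.24 without control replicate 1 and −1.05 without control replicate 2. In intron 1, at +2248 bp (chr1:171231990-171232239), heights were 6.42 and 5.15 in control and 2.24 and 2.54 in IL-4 cells. This was the largest change among the 17 regions, at −1.04 ± 0.547 (SE, limma adjusted p = 0.63), and it was not called. The region at −373 bp had a peak of 4.92 in control replicate 2 and of 2.38 in IL-4 replicate 1.

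Fcer2a spans chr8:3680280-3694174 on the minus strand and had no region in any library. The nearest region was the promoter of Trappc5, 3641 bp beyond the end of the gene, with heights of 9.81 and 10.66 in control and 12.04 and 10.03 in IL-4 cells. RefSeq lists more than 1 start for Fcer2a. The window before one of them held the STAT6 letters, as did 6.94% of all promoter windows, and is shown in the direction of the gene because it pairs such letters with no peak. Capitals mark the match.
Fcer2a promoter (chr8:3690872-3691111, minus strand): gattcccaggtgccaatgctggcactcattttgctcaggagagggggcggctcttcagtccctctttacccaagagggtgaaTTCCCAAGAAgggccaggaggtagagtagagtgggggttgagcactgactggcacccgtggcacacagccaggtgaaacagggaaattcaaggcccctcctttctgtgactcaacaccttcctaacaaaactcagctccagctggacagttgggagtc

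Syk, the kinase recruited to the phosphorylated gamma chain, spans chr13:52582610-52648792 on the plus strand and has 2 RefSeq start sites with a peak in all 4 libraries. At the upstream start (+11 bp) heights were 5.80 and 7.55 in control and 3.05 and 3.02 in IL-4 cells, and the groups did not overlap. The log2 change there was −0.87 ± 0.549 (SE, limma adjusted p = 0.706). At the downstream start (−34 bp) heights were 8.32 and 7.12 in control and 5.74 and 6.21 in IL-4 cells, both control values being above both IL-4 values. After normalisation the groups overlapped, with a change of −0.11 ± 0.521 (SE, limma adjusted p = 0.978). The difference between the start sites was not tested. A peak at −327 bp was present in both control libraries (4.93 and 8.42) and in IL-4 replicate 2 alone (3.72).

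Inside Syk the highest regions lay in introns. In intron 1, at +6128 bp, heights were 22.46 and 13.60 in control and 12.34 and 10.34 in IL-4 cells, with no overlap, and the log2 change was −0.41 ± 0.364 (SE, limma adjusted p = 0.82). At +18338 bp, in intron 3, they were 14.70 and 17.28 in control and 16.19 and 13.14 in IL-4 cells, and the groups overlapped. The region at +39548 bp, in intron 9, had 6.03 and 14.87 in control and 4.11 and 6.43 in IL-4 cells, so its change of −0.62 ± 0.544 (SE, limma adjusted p = 0.819) turned to 0.11 without control replicate 2. At +22804 bp heights were 5.76 and 5.01 in control and 6.41 in IL-4 replicate 1, and no peak was called in IL-4 replicate 2. Single peaks of 4.76 at −2422 bp and 2.35 at +27421 bp were found in control replicate 1. Of the 5 tested Syk regions 4 had a negative change, compared to 50.1% of all regions tested, and none was called. The direction at −34 and +39548 bp turned when 1 library was left out.

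The heights at the start sites fell in the following order in control cells, on the normalised log2 scale. Fcer1g was at 3.90 ± 0.57, Fcgr1 at 3.38 ± 0.13, the downstream Syk start at 2.82 ± 0.01, the upstream Syk start at 2.62 ± 0.42 and Fcgr2b at 2.40 ± 0.42 (SD, n = 2). Fcer1g and Fcgr1 differed by less than the SD of Fcer1g, and the upstream Syk start differed from each of its neighbours by less than its own SD. The distance between Fcgr1 and the downstream Syk start exceeded both SDs. In IL-4 cells Fcer1g (3.26 ± 0.08) and Fcgr1 (2.89 ± 0.57) had the highest means, followed by the downstream Syk start (2.70 ± 0.31), Fcgr2b (2.14 ± 0.29) and the upstream Syk start (1.75 ± 0.20). Fcgr1 differed there from Fcer1g and from the downstream Syk start by less than its own SD. Fcgr3 and Fcgr4 had no start site region in all 4 libraries and have no place in this order. By Euclidean distance over the 4 normalised log2 heights, the promoter regions most like these among 7919 were those of Fam102a for Fcer1g (0.263), Iqgap3 for Fcgr1 (0.164), Slc25a11 for the downstream (0.164) and Pard6a for the upstream Syk start (0.278), and BC147527 for Fcgr2b (0.248).

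A list of 37 other genes of Fc receptor signalling was counted in the same way. It had 240 regions at 34 genes, of which limma tested 105 and called 0 at an adjusted p under 0.05, while 3 were higher and 7 lower at an unadjusted p under 0.05. Those 10 were 9.52% of the regions tested, compared to 8.28% of all 25442 tested. Of its regions 11 were IL-4-only (4.58%, compared to 2.53% of all regions) and 16 control-only (6.67%, compared to 4.33%). The list fell into groups by role. Kinases (Lyn, Fgr, Src and Btk) had 8 tested regions with 0 at an unadjusted p under 0.05, and 2 control-only regions, in introns of Lyn and Btk. Among adaptors, the promoter of Tyrobp, which encodes the adaptor DAP12, had heights of 18.49 and 21.37 in control and 5.42 and 10.27 in IL-4 cells. Its log2 change was −1.18 ± 0.411 (SE, limma adjusted p = 0.374).

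Among effectors, a region in intron 1 of Vav3, a guanine nucleotide exchange factor, had heights of 25.66 and 20.31 in control and 10.38 and 4.46 in IL-4 cells (log2 change −1.56 ± 0.397 SE, limma adjusted p = 0.173). Among inhibitors, a region at −42084 bp of Cblb, a ubiquitin ligase that restrains receptor signalling, had 5.65 and 4.95 in control and 19.95 and 14.60 in IL-4 cells. The log2 change there was 1.90 ± 0.456 (SE, limma adjusted p = 0.151). Cblb also had 3 IL-4-only regions, named after their values were seen, of which the highest, at −142975 bp, had heights of 15.64 and 10.18. IL-4-only regions were 6.25% of the 64 regions of inhibitors, compared to 2.53% of all regions. Other signalling genes had such regions too. Gab2 had them at −63634, +26534 and +73537 bp, and control-only regions at +690 and +41798 bp. Vav3 had an IL-4-only region at −2341 bp and control-only regions at −73484 and +158621 bp. Among other Fc receptor genes, the promoter of Fcrl1 had 6.03 and 8.57 in control and 1.77 and 2.49 in IL-4 cells (log2 change −1.53 ± 0.554 SE, limma adjusted p = 0.404). The 4 regions given with a log2 change, at Tyrobp, Vav3, Cblb and Fcrl1, were chosen for an unadjusted limma p under 0.01. None of them passed the adjusted threshold.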

How the data were processed

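ATAC-seq libraries of 2 control and 2 IL-4 samples were used, each with its own deposited peak list. Per the submitters' processing notes the tools were BWA 0.7.10, SAMtools 0.1.19, MACS2 2.0.10 and HOMER 4.2 on mm10. The authors called peaks per library, removed blacklisted regions and annotated peaks to RefSeq. Adapter shift and duplicate handling are not given in the sources used here. The deposited score is not labelled, and was read as −log10 of the q-value from its minimum of 1.3. The authors' methods name a q of at most 0.01, whereas 133 to 603 peaks per library score under 2.

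Nuclear peaks (chromosomes 1 to 19, X, Y) were merged at an overlap of 1 bp, with the same result from bedtools 2.31.1. A region took each library's highest score and the annotation of its highest peak. Distances are those deposited for that peak, positive downstream. Log2 heights of regions in all 4 libraries were quantile-normalised, and limma 3.58.1 (R 4.3.3) compared the groups (trend, Benjamini-Hochberg, threshold 0.05). The fit was tested on simulated data with planted changes larger than any seen at these genes. That test does not show whether changes of the size seen here could be called. The methods name 2 biological replicates without saying whether these were separate mice, so p-values measure only the spread between these libraries. Named regions were the one nearest the start site and the one of largest change per gene, and every region specific to a group. For other signalling genes they were those with an unadjusted p under 0.01, and some group-specific ones were added after their values were seen. Scaled heights were added after the data were seen. Sequences and motifs (both strands, whole region, 8 motifs) come from RefSeq GRCm38.p6, whose coordinates match mm10, and all 7 genes matched its promoter table. Biopython 1.88 aligned the intron regions. The genes and lists were chosen with earlier results of these data known. A gene of the signalling list is not reported here and was left out of its counts. Alternatives were other normalisations, no variance trend, a replicate block, stricter heights, wider merging, another gene assignment and leaving out each library.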

Additional observations from a re-analysis of the deposited data

How the results depend on the processing

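The number of regions called by limma among these genes was 0 under every alternative run. At an unadjusted p under 0.05 it was 1 with no normalisation, 3 with no variance trend, 1 with peaks above the pooled median height, and 0 to 2 when each library was left out. The median log2 change of −0.12 was −0.39 with no normalisation and 0.06 with peaks above the pooled median, and ranged from −0.13 to 0.16 when each library was left out, so its sign differed between alternatives. With peaks above the pooled median, 5 regions had a peak in all 4 libraries, and control-only regions were 0, at Fcgr4 also 0. When each library was left out, IL-4-only regions ranged from 2 to 6 (2 to 5 at Fcgr2b), control-only regions from 3 to 9 (3 to 5 at Fcgr4), and regions with a peak in every library left from 17 to 23. Leaving out a library also loosens the rule, since 1 library then stands for its group. Without normalisation the direction turned at Fcgr4 +18156 bp (−0.11), Syk +18338 bp (−0.13) and Fcgr1 −8862 bp (−0.24). When each library was left out it turned at 8 of the 17 regions, with ranges of −0.57 to 0.02 at Fcgr2b +19 bp, −0.45 to 0.74 at Fcgr4 +18156 bp, −1.04 to 0.35 at Fcgr3 +14371 bp, −0.32 to 0.10 at Syk −34 bp, −0.13 to 0.30 at Syk +18338 bp, −1.40 to 0.11 at Syk +39548 bp, −0.02 to 0.75 at Fcgr1 −6896 bp and −0.44 to 0.44 at Fcgr1 −8862 bp. At the other 9 it ranged from 0.07 to 0.64 at Fcgr2b +22685 bp, 0.21 to 0.69 at Fcgr4 −20521 bp, 0.57 to 1.23 at Fcgr4 −12398 bp, −0.24 to −0.03 at Fcgr3 +14814 bp, −1.30 to −0.66 at Fcer1g +2248 bp, −1.05 to −0.24 at Fcer1g −45 bp, −1.19 to −0.62 at Syk +11 bp, −0.70 to −0.13 at Syk +6128 bp and −0.88 to −0.08 at Fcgr1 −29 bp. In total 178 of 192 values by region kept their direction. That total includes the variance trend and replicate block settings, which cannot alter these log2 changes. It also includes the other gene assignment, which left them unchanged, so the total overstates how stable the directions were.

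The replicate block changed no call among these genes (0 called, median −0.12), and over all regions it raised the calls from 6 to 14. Control and IL-4 replicate differences had a correlation of 0.00677 over the 25442 regions, and no label pairs the samples, so replicate numbers were not treated as pairs. All regions called were 3 with no normalisation or with peaks above the pooled median, 0 with no variance trend, and 0 to 14 with each library left out. All IL-4-only regions were 585 above the pooled median, and 2634 to 5820 with each library left out, against 4389 to 8527 for control-only regions. The cause of these shifts was not tested. In fits without 1 library the lone sample of its group is assumed to vary like the other pair. Depth is unknown, so a missing peak of low height cannot be told from a shallow library.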
